A study of Mus musculus with 30 samples.

Results

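The genes examined were 10 genes of the neuromuscular junction in mouse gastrocnemius muscle: the acetylcholine receptor subunits Chrna1, Chrnb1, Chrnd, Chrne and Chrng, and the synapse organizers and cleft protein Musk, Dok7, Rapsn, Lrp4 and Colq. They were taken by symbol from the 56951 gene symbols of the deposited tables, and each stood on 1 row. Poly(A)+ RNA was sequenced from wild-type male C57BL/6J mice, 1 library per mouse. The 14 mice of the LD group lived under a fixed cycle of 12 h light and 12 h darkness for 64 weeks, and the 16 mice of the ADV group under a cycle advanced by 8 h every 4 days for the same time. All were 14 weeks old at the start, were housed singly with a running wheel and had passed through weeks of constant darkness before it. Of the 16 mice assigned to each group, 2 of the LD group were lost. The muscle was collected together with the plantaris, at daytime hours that differed between mice.

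The neuromuscular junction is the synapse at which a motor axon excites a muscle fiber. Agrin released by the nerve binds LRP4, which together with DOK7 activates the receptor kinase MuSK. Rapsyn then anchors acetylcholine receptors in a dense cluster under the nerve ending. The adult receptor is built from alpha, beta, delta and epsilon subunits, and the fetal receptor has gamma in the place of epsilon. Fetal receptors, MuSK and myogenin return in muscle fibers that have lost their nerve, and mutations in most of these genes cause congenital myasthenia. Transcription at the junction is confined largely to the few nuclei under the synapse. In RNA of a whole muscle, fewer such nuclei and less RNA per nucleus cannot be told apart.

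The promoters of receptor genes carry binding sites for the myogenic factors, myogenin (Myog) among them, which recognize the E-box CANNTG, and at some genes for ETS factors, which recognize the N-box CCGGAA. Because the comparison with Myog is among those made here, the 250 bases before the RefSeq start are shown for 4 members, 5′ to 3′ on the gene's strand, with each E-box and N-box on either strand in capitals. The sequences are from RefSeq promoters of GRCm38.p6, and each matched GRCm39 exactly at 1 place, whose coordinates are given: chr2:73410683-73410932 (minus strand) for Chrna1, chr1:87133283-87133532 (plus) for Chrng, chr11:70510021-70510270 (minus) for Chrne and chr4:58285712-58285961 (plus) for Musk.
Chrna1: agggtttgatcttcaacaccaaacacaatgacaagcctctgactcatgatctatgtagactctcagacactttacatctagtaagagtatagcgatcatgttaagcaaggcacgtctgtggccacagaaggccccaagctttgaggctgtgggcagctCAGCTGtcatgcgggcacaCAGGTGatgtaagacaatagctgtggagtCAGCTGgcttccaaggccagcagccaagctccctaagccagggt
Chrng: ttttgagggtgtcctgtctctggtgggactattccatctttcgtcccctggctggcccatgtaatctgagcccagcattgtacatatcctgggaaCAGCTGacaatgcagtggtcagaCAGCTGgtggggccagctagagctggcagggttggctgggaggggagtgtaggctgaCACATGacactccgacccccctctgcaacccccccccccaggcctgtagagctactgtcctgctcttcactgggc
Chrne: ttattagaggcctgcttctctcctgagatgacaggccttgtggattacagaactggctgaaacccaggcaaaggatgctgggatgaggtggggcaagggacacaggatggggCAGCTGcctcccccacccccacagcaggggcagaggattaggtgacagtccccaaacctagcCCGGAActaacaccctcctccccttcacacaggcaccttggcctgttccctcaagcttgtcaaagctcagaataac
Musk: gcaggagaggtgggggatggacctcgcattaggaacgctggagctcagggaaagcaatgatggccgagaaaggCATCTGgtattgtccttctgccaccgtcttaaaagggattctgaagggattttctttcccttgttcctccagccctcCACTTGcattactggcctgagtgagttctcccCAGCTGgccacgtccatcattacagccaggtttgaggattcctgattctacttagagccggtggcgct
Chrna1, Chrng and Musk each held 3 E-boxes in this window, and 12% of the windows of 32851 RefSeq promoters held 3 or more. At least 1 E-box stood in 66.2% of them. The form CAGCTG, itself an E-box, stood at -92 to -87 and -44 to -39 in Chrna1 and at -155 to -150 and -132 to -127 in Chrng, and 1.26% of all windows held 2 or more copies of it. Chrne held 1 CAGCTG at -138 to -133 and 1 N-box at -76 to -71, and 12% of all windows held an N-box. Chrnb1 held 3 E-boxes and no N-box, and the 2 entries of Dok7 held 1 and 0 E-boxes and no N-box. Of the 10 members, 6 had an entry in the promoter table, and Chrnd, Rapsn, Lrp4 and Colq did not.

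Expression levels are given as FPKM, the reads on a gene per kilobase of its exons, scaled to the reads of the library, so that genes of unequal length can be compared. Chrnb1 had the highest mean over the 30 libraries, at 14 FPKM, followed by Rapsn at 12.2, Musk at 12.1, Dok7 at 6.92, Chrne at 6.19, Chrna1 at 3.61, Colq at 2.85, Lrp4 at 1.71, Chrnd at 0.893 and Chrng at 0.0567. The order of some neighbors was not stable between mice. Rapsn exceeded Musk in 16 of 30 libraries, Dok7 exceeded Chrne in 19 and Chrnb1 exceeded Rapsn in 23, whereas each of the other neighbors kept its order in at least 27. Mice differed least in Rapsn, with a coefficient of variation of 8.43%, and most, among the tested members, in Chrnd at 36% and Dok7 at 29.5%. For Chrnd the reads were few, 63.7 on average, for which counting error alone gives 12.5%. For Dok7, with 469 reads, counting gives 4.62%.

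**Figure D1:**
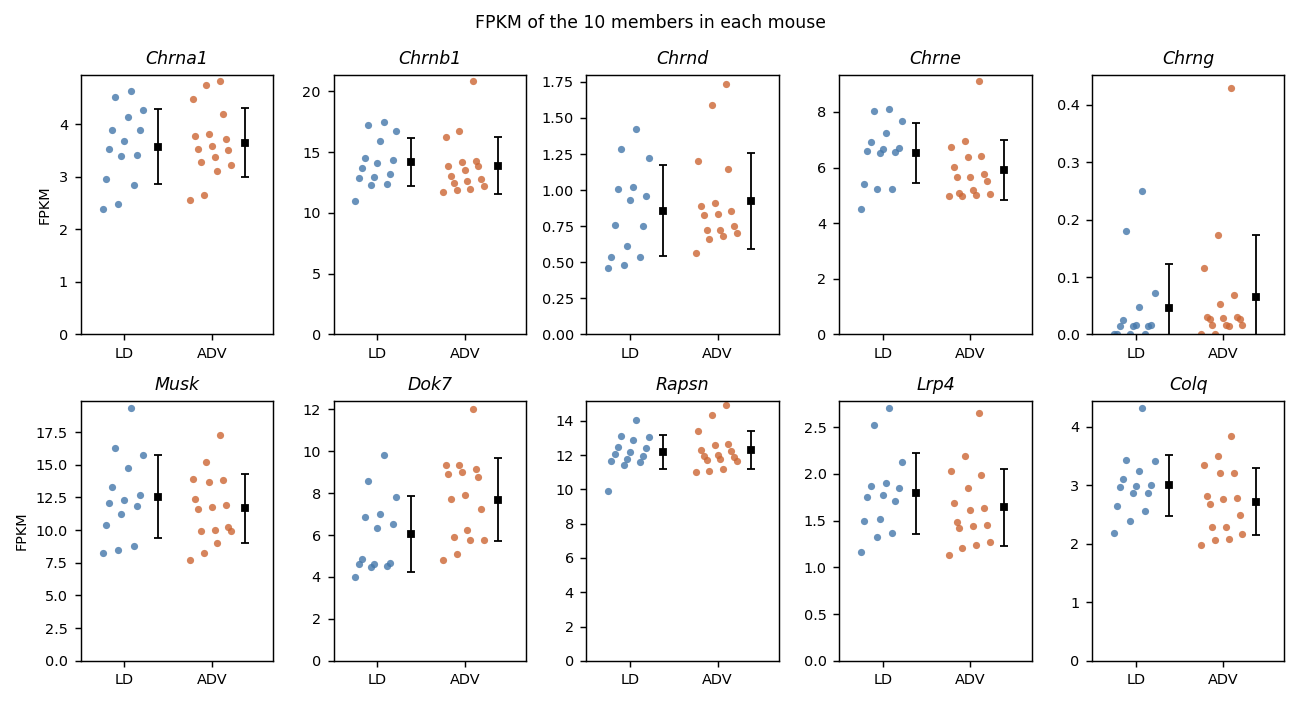
FPKM of the 10 genes in each mouse of the LD (n = 14, left) and ADV (n = 16, right) groups, with 1 point per mouse and the mean ± SD as a black square and bar (cut at 0 for Chrng). The groups overlap in every panel, and 14 of 16 ADV mice lie above the LD median for Dok7. For Chrng 13 of 16 do, but the LD median is 1 read, and ADV mice 21, 23 and 29 exceed its FPKM with 1 read each. That count therefore depends on library size.

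The first comparison asked whether the genes of the junction differed between the schedules. None of the 9 members that could be tested differed between LD and ADV at an FDR under 0.05 (edgeR quasi-likelihood test, Benjamini-Hochberg adjustment over 12030 genes), against 10.8% of all genes tested, or 1301. With 1 library left out the number of genes called ran from 835, without LD mouse 28, to 1542. At an unadjusted p under 0.05 there was 1 member, Dok7, beside 3624 of the 12030 genes, and DESeq2 and limma also called 0 members. Their median log2 fold change was -0.05, beside 0.00 over all genes. For 7 of the 9, all but Chrnd and Dok7, the 95% interval of the fold change lay within a 1.3-fold difference in either direction, which is 0.38 on the log2 scale. This holds for the fit without covariates, and intervals are not given for the alternatives. With the clock gene score (described below for Chrne) as covariate, Chrne was at -0.34 (SE 0.12), Colq at -0.30 (SE 0.13) and Chrna1 at -0.23 (SE 0.13). Rapsn was then at -0.07 (SE 0.07). The tested genes had a mean over 20 reads and over 0.5 FPKM, which left out Chrng.

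**Figure D2:**
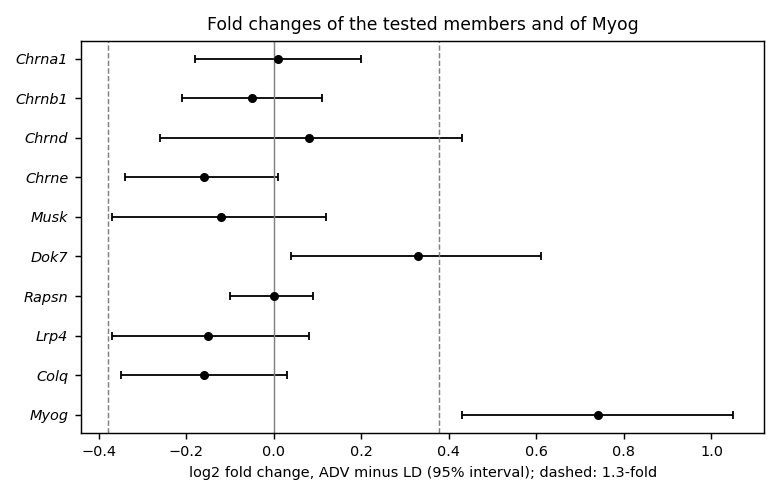
Log2 fold changes of the 9 tested members and of Myog, ADV minus LD, with 95% intervals from the edgeR fit without covariates. The intervals of 7 members lie between the dashed lines at 1.3-fold, that of Dok7 runs from 0.04 to 0.61, and that of Myog, from 0.43 to 1.05, lies beyond them.

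Chrna1 encodes the alpha subunit, which carries the acetylcholine binding sites. It has 9 exons (GENCODE vM39) and a row from 73393559 to 73410682 of chromosome 2 (GRCm39), minus strand. Its FPKM ran from 2.39 over a median of 3.60 to 4.63 in LD mice and from 2.56 over 3.55 to 4.82 in ADV mice. The ranges nearly coincided, and 7 of 16 ADV mice lay above the LD median. ADV minus LD was 0.01 on the log2 scale (standard error, SE, 0.09, edgeR FDR 0.937). Its exons share 601 bases with Gm30940, a noncoding gene on the opposite strand. The libraries were stranded, but whether the counting used strand is not given in the sources used here.

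Chrnb1, the beta subunit, has 11 exons (vM39) and a row from 69674862 to 69686769 of chromosome 11, minus strand. It ranged from 11 to 17.5 FPKM in LD mice, with a median of 13.9, and from 11.8 to 20.9 in ADV mice, with a median of 13.3. The highest value, in ADV mouse 27, stood above every LD mouse, and the other ADV mice fell among them. The groups differed by -0.05 on the log2 scale (SE 0.08, edgeR FDR 0.699).

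Chrnd, the delta subunit, has 12 exons (vM39) and a row from 87118359 to 87127792 of chromosome 1, plus strand. It was at 0.46 to 1.42 FPKM in LD mice, with a median of 0.845, and at 0.567 to 1.74 in ADV mice, with a median of 0.833. The medians were near each other while the highest mice, ADV mouse 24 and ADV mouse 27, exceeded all LD mice. Its log2 fold change of 0.08 had the widest error among the tested members (SE 0.17, edgeR FDR 0.775), and its 95% interval, -0.26 to 0.43, reached past a 1.3-fold rise.

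Chrne, the epsilon subunit of the adult receptor, has 12 exons (vM39) and a row from 70505709 to 70510020 of chromosome 11, minus strand. Its FPKM was 4.53 to 8.12 in LD mice, with a median of 6.62, and 4.97 to 9.12 in ADV mice, with a median of 5.67. Of the 16 ADV mice 3 lay above the LD median, yet the highest of all was ADV mouse 27. The log2 fold change of -0.16 (SE 0.09, 95% interval -0.34 to 0.01) had an edgeR p of 0.0642 and an FDR of 0.194. With the clock gene score as covariate it was -0.34 (edgeR FDR 0.286). That score is the mean z score of genes in phase with Bmal1 minus that of genes in phase with Dbp, and it ran from -3.17 to 1.10 in LD and from -1.33 to 2.30 in ADV mice.

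The balance of subunits was examined as the log2 ratio of the FPKM of Chrna1, Chrnb1 and Chrnd, each to Chrne. Chrna1 to Chrne was -0.88 ± 0.34 (mean ± SD, n = 14) in LD and -0.70 ± 0.23 (n = 16) in ADV mice (exact rank-sum test of Wilcoxon, two-sided, p = 0.179). Chrnb1 to Chrne was 1.13 ± 0.31 and 1.24 ± 0.19 (exact p = 0.208). Chrnd to Chrne was -3.00 ± 0.54 and -2.73 ± 0.34 (exact p = 0.154). All 3 ratios were higher in the ADV mean, they share Chrne as denominator, and none of the differences passed an unadjusted 0.05.

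Chrng, the gamma subunit of the fetal receptor, has 12 exons (vM39) and a row from 87133533 to 87140416 of chromosome 1, plus strand. It was nearly silent. In LD mice it had a median of 1 read, a highest of 21.5 and 0 reads in 4 of 14 libraries. In ADV mice it had a median of 2 reads, a highest of 28.5 and 0 reads in 2 of 16 libraries. The levels ranged from 0 to 0.25 FPKM and from 0 to 0.429 FPKM, with no difference past the threshold (rank-sum test of Wilcoxon with permutations, two-sided, p = 0.172). Summed over the group and per kilobase, Chrng reads came to 0.769% of Chrne in LD and 1.1% in ADV.

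**Figure D3:**
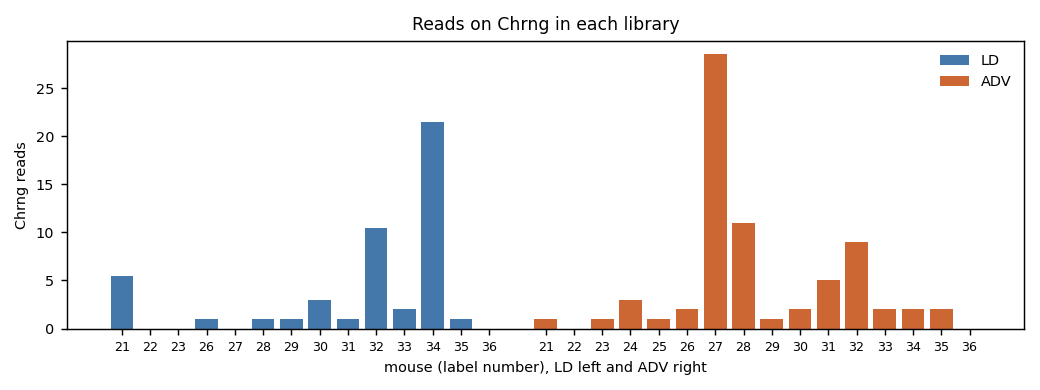
Reads counted on Chrng in each library, with LD mice on the left and ADV mice on the right, named by label number. Most bars are at 0 to 3 reads, and LD mouse 34 (21.5 reads) and ADV mouse 27 (28.5 reads) stand apart in their groups.

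The Chrng reads were concentrated in few mice. LD mouse 34 held 45.3% of the LD reads and ADV mouse 27 held 40.4% of the ADV reads, followed by ADV mouse 28 with 11, LD mouse 32 with 10.5 and ADV mouse 32 with 9. In ADV mouse 27, Chrng per kilobase stood at 4.71% of Chrne. This mouse also ranked 1st of 30 in the FPKM of Chrna1, Chrnb1 and Chrne, and 2nd in Chrnd, Lrp4 and Colq. It was 1st as well in Ncam1, the neural cell adhesion molecule, Myh3, the embryonic myosin heavy chain, and Gdf5, a growth factor induced in denervated muscle. In Myh2, a myosin heavy chain taken up below, it was 2nd. Its Musk was at 9.91 FPKM, below the ADV median of 11.7. Its Dok7 was at 7.92 FPKM (ADV median 7.81) and its Rapsn at 12.6 (ADV median 12). LD mouse 34 ranked 3rd in both Chrnb1 and Chrnd, and lower in the others, at 7 for Chrne, 10 for Chrna1, 10 for Colq, 14 for Lrp4, 9 for Ncam1, 10 for Myh3 and 10 for Gdf5. LD mouse 34 was below the LD median in Musk (8.78 against 12.2 FPKM), Dok7 (4.63 against 5.59) and Rapsn (11.8 against 12.1). The mice that followed had mixed ranks in the genes ranked above. ADV mouse 28 ranked from 5 in Myh3 to 20 in Ncam1, 24 in Chrnd and 28 in Chrne. LD mouse 32 ranked from 5 in Chrnd, Gdf5 and Myh2 to 23 in Chrne, 24 in Chrnb1 and 27 in Ncam1. ADV mouse 32 ranked from 2 in Chrna1 to 19 in Chrne. In Sln, one of the denervation-responsive genes listed below, ranks were high in all of them. ADV mouse 27 was 1st, LD mouse 34 5th, ADV mouse 28 7th, LD mouse 32 2nd and ADV mouse 32 3rd. Between the groups Sln had a log2 fold change of 0.06 (SE 0.32, edgeR FDR 0.917). These mice were singled out after their values were seen, so the ranks are a description.

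Musk, the receptor kinase of the agrin signal, has 14 exons (vM39) and a row from 58285962 to 58374303 of chromosome 4, plus strand. Its FPKM was 8.26 to 19.3 in LD mice, with a median of 12.2, and 7.7 to 17.3 in ADV mice, with a median of 11.7. The groups covered much the same range, and 6 of 16 ADV mice lay above the LD median. Its log2 fold change came to -0.12 (SE 0.12, edgeR FDR 0.514). Of its exon bases 93 are shared with Gm68860, a noncoding gene on the opposite strand, with the same doubt on strand as for Chrna1.

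Dok7 encodes the adaptor that binds MuSK from inside the fiber and is needed for its activation. It has 7 exons (vM39) and a row from 35214206 to 35238308 of chromosome 5, plus strand. It was at 3.98 to 9.82 FPKM in LD mice, with a median of 5.59, and at 4.8 to 12 FPKM in ADV mice, with a median of 7.81. The ranges overlapped widely, with 14 of 16 ADV mice above the LD median. The log2 fold change was 0.33 (SE 0.14, 95% interval 0.04 to 0.61) with an edgeR p of 0.0249, which became an FDR of 0.113 over all genes, so Dok7 was not called. It has the highest GC content among the members, 60.8%, and with the GC trend of each library removed the log2 fold change was 0.19 (edgeR FDR 0.397). With the clock gene score as covariate it was 0.56 (edgeR FDR 0.325).

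Rapsn encodes rapsyn, the scaffold that ties receptors to the cytoskeleton. It has 8 exons (vM39) and a row from 90865986 to 90876074 of chromosome 2, plus strand. LD mice had 9.88 to 14 FPKM, with a median of 12.1, and ADV mice 11 to 14.9, with a median of 12. Mice varied less in it than in any other member. On the log2 scale the difference was -0.00 (SE 0.05, edgeR FDR 0.991), with a 95% interval of -0.10 to 0.09, the narrowest among the members. With the GC trend removed it was -0.10 (SE 0.05, edgeR FDR 0.162). Its exons share 6 bases with Gm13778, a noncoding gene on the opposite strand.

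Lrp4, the muscle receptor of agrin, has 38 exons (vM39) and a row from 91287856 to 91344124 of chromosome 2, plus strand. Its FPKM was 1.17 to 2.7 in LD mice, with a median of 1.76, and 1.13 to 2.65 in ADV mice, with a median of 1.55. The ranges were nearly equal. This gave a log2 fold change of -0.15 (SE 0.11, edgeR FDR 0.390).

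Colq encodes the collagen tail that anchors acetylcholinesterase in the synaptic cleft. Its row runs from 31245039 to 31299340 of chromosome 14, minus strand, and its 17 exons (vM39) reach from 31243665 to 31299365. Of these exon bases 199 are shared with Gm49387, a gene on the same strand at 165 reads on average. Where that stretch lies within the row, its reads may belong to either. Its FPKM was 2.17 to 4.32 in LD mice, with a median of 2.98, and 1.97 to 3.83 in ADV mice, with a median of 2.72. ADV mice tended to the lower end of the LD range, and 5 of 16 lay above its median. ADV minus LD was -0.16 on the log2 scale (SE 0.09, edgeR FDR 0.252), and -0.30 (edgeR FDR 0.378) with the clock gene score as covariate.

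Myog, the myogenic factor that drives receptor genes in denervated and developing muscle, was the reference for the second comparison. It was at 1.02 to 2.18 FPKM in LD mice, with a median of 1.64, and at 1.31 to 4.90 in ADV mice, with a median of 2.51. It was higher in ADV mice, by 0.74 on the log2 scale (SE 0.15, edgeR FDR 0.00377), with 13 of 16 above the LD median. With the clock score added to the model 0 genes were called, so this call was lost. The score itself differed between the groups (mean ± SD -1.10 ± 1.21 in LD and 0.97 ± 0.81 in ADV mice). Score and schedule are thus not fully separable in that fit, and the SE of Dok7, for 1, went from 0.14 to 0.22. The question was whether members followed Myog from mouse to mouse within a group. With the groups held as a term, edgeR found 0 members, and 0% of all 12029 genes, with a slope on Myog at an FDR under 0.05, while limma on log2(FPKM + 0.1) also found 0 members. At an unadjusted p under 0.05 were 2 members, Chrna1 and Chrnd, and 8.06% of all genes.

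The slope of Chrna1 was 0.28 on the log2 scale per doubling of Myog (SE 0.10, edgeR p = 0.00891, FDR 0.519) and that of Chrnd 0.47 (SE 0.19, edgeR p = 0.0194, FDR 0.564). Neither passed the threshold. By group the slopes were 0.40 in LD and 0.24 in ADV mice for Chrna1 and 0.45 and 0.48 for Chrnd, and 0% of genes were called in either group alone. The other members had slopes between -0.26 for Musk and 0.12 for Chrne, and the median over the 9 members was 0.08, beside 0.01 over all genes.

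As correlations of log2 CPM (counts scaled to library size), the relation of Chrna1 with Myog was r = 0.46 in LD mice (n = 14, rho = 0.51, permutation p = 0.0981 and 0.0676) and r = 0.48 in ADV mice (n = 16, rho = 0.56, permutation p = 0.0556 and 0.0282). For Chrnd it was r = 0.23 in LD mice (rho = 0.23, permutation p = 0.427 and 0.424) and r = 0.52 in ADV mice (rho = 0.61, permutation p = 0.0385 and 0.0137). After Benjamini-Hochberg adjustment over 12029 genes in each group the lowest of these was 0.748 in LD and 0.801 in ADV, and 0 genes passed in either. Without the 2 mice farthest from the median of Myog, mice 27 and 33 in LD and 32 and 36 in ADV, Chrna1 was at r = 0.36 and 0.42 and Chrnd at 0.22 and 0.49. Musk was negative in both groups, at r = -0.28 and -0.29 (permutation p = 0.336 and 0.279), and at -0.44 and -0.27 without those mice. Rapsn was at 0.50 in LD and -0.04 in ADV mice (permutation p = 0.0697 and 0.892), and at 0.23 and 0.19 without them. Dok7 was at -0.36 in LD and 0.34 in ADV mice (permutation p = 0.209 and 0.199), and at -0.58 and 0.61 without them. The difference of its slopes between groups had an edgeR FDR of 0.989. For Chrng, whose reads are few, the rank correlation was 0.04 in LD and 0.25 in ADV mice, given as a description.

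**Figure D4:**
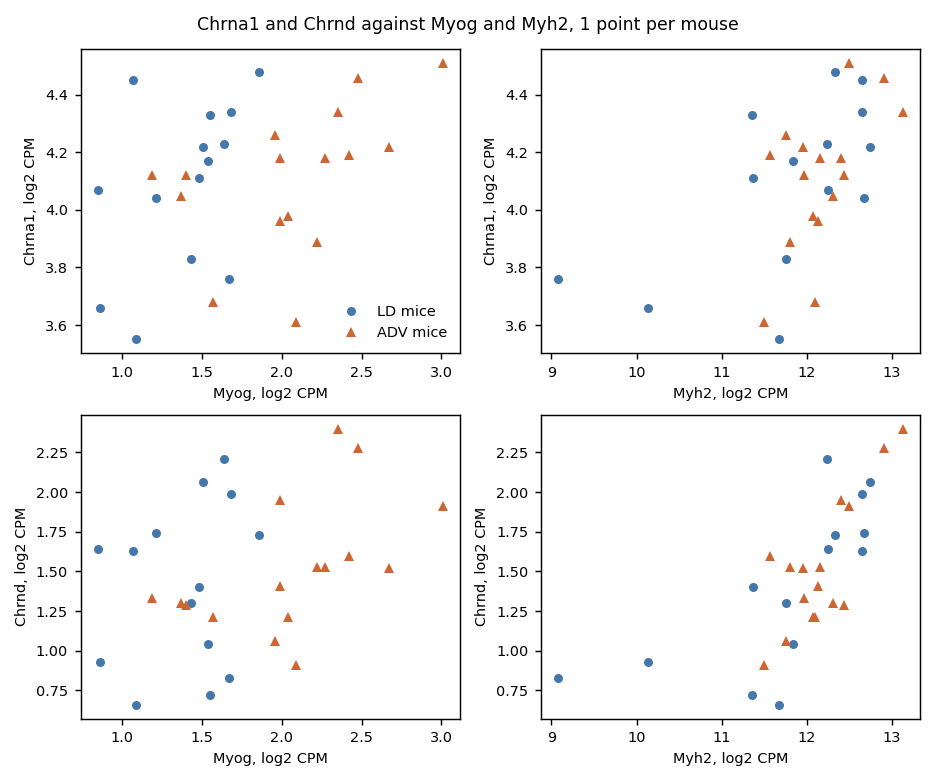
Log2 CPM of Chrna1 (top) and Chrnd (bottom) against that of Myog (left) and Myh2 (right), with 1 point per mouse, LD mice as circles and ADV mice as triangles. Points rise to the right most tightly for Chrnd against Myh2, where r was 0.71 in LD and 0.79 in ADV mice, and 2 LD mice with low Myh2 lie far to the left.

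The members were then compared with each other over the 30 mice after the group means were subtracted. Of the 36 pairs of tested members 23 had a positive correlation, with r from -0.47 to 0.65 and a median of 0.09. The closest pair was Chrna1 with Chrnd, at r = 0.65 (rho = 0.61), 0.60 in LD and 0.71 in ADV mice. Colq went with both, at r = 0.57 with Chrna1 and 0.59 with Chrnd, and with Chrne at 0.47. Chrnb1, although a subunit of the same receptor, was at 0.12 with Chrna1 and -0.04 with Chrnd, and at 0.40 with Chrne. The lowest was Dok7 with Lrp4, at r = -0.47. These r are descriptions over mice that share a group and were picked from 36.

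**Figure D5:**
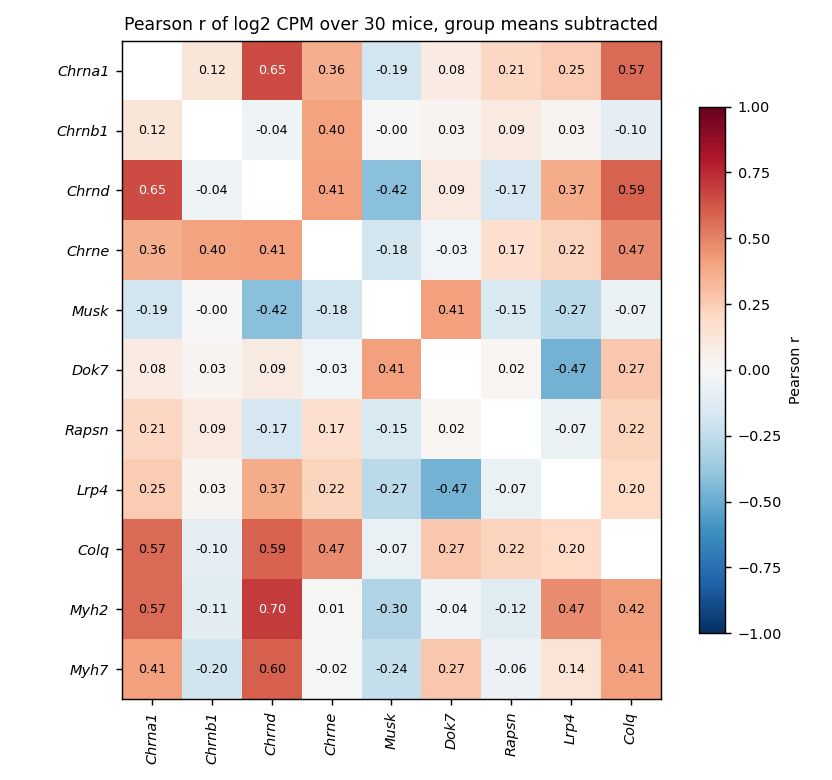
Pearson r of log2 CPM between the 9 tested members (columns) and the same members, Myh2 and Myh7 (rows), over 30 mice with group means subtracted, from blue (-1) over white (0) to red (1). Red cells gather where Chrna1, Chrnd and Colq meet each other and Myh2, with r from 0.42 to 0.70, while the row of Rapsn is pale, with r from -0.17 to 0.22.

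In edgeR fits of every gene on the log2 CPM of each of the 9 members, with the groups held as a term, 3 of the 72 ordered pairs of members had an FDR under 0.05. Chrna1 rose by 0.35 on the log2 scale per doubling of Chrnd (FDR 0.00819) and Colq by 0.33 (FDR 0.0180), in a fit that called 6.71% of all genes. Both calls held with each library left out in turn. Chrnd rose by 1.24 per doubling of Chrna1 (SE 0.26, edgeR FDR 0.0444), in a fit that called 0.0998% of genes, or 12, which became 1 to 95 in the 30 fits that left out 1 library. This FDR was over 0.05 in 22 of those 30 fits, and at 0.142 with the clock gene score as covariate. The fits on the other members called 0.125% of all genes for Chrnb1, 0% for Chrne, 4.55% for Musk, 4.07% for Dok7, 0.457% for Rapsn, 1.07% for Lrp4 and 0% for Colq, and no member among them. These fits were added after the data were seen.

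Chrnd and Chrna1 also rose with Myh2, the myosin heavy chain of fast oxidative (IIA) fibers, which was chosen for this comparison after its values were seen. Myh2 ran from 83.4 to 1050 FPKM in LD mice (median 639) and from 443 to 1450 FPKM in ADV mice (median 661), and LD mouse 23 was the lowest. Chrnd rose by 0.46 on the log2 scale per doubling of Myh2 (SE 0.08, edgeR FDR 0.000256) and Chrna1 by 0.20 (SE 0.05, edgeR FDR 0.0115), with the groups held as a term. Both were called in each of the 30 fits that left out 1 library. The fit called 10.7% of all genes. Lrp4, at 0.19 (SE 0.06), had an edgeR FDR of 0.0556, Colq was at 0.14 (SE 0.06, edgeR FDR 0.119) and Musk at -0.15 (SE 0.08, edgeR FDR 0.257), and Chrnb1, Chrne, Dok7 and Rapsn had slopes between -0.05 and 0.00. By group, r with Myh2 had unlike signs in LD and ADV mice for Chrne (-0.24 and 0.59), Rapsn (0.15 and -0.62) and Chrnb1 (-0.30 and 0.25). For Dok7 it was -0.04 and -0.07. These r are given as a description.

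On Myh7, the myosin heavy chain of slow fibers, Chrnd rose by 0.25 per doubling (SE 0.06, edgeR FDR 0.0124), in a fit that called 5.04% of genes. This call was lost without ADV mouse 24 (edgeR FDR 0.0567), the mouse with the highest Chrnd, Myh2 and Myh7. Chrna1 was at 0.09 on Myh7 (SE 0.04, edgeR FDR 0.148). With Myh7 as a covariate in the comparison of the groups, Chrnd had a log2 fold change of -0.08 in place of 0.08, and neither value was called.

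Musk and Dok7, the kinase and its adaptor, had an r of 0.86 in LD mice and of -0.10 in ADV mice. The slope of Dok7 on Musk differed by -1.14 between the groups (SE 0.33, edgeR p = 0.00145), but the FDR over all genes was 0.166, so the difference was not called. In LD mice both genes had a negative correlation with the clock gene score, Musk at r = -0.61 (rho = -0.70, permutation p = 0.0201 and 0.00733) and Dok7 at r = -0.64 (rho = -0.68, permutation p = 0.0143 and 0.00968). In ADV mice they were at r = 0.49 (rho = 0.41, permutation p = 0.0497 and 0.112) and 0.36 (rho = 0.23, permutation p = 0.170 and 0.399). After adjustment over 12030 genes the lowest of these was 0.157, and without the 2 mice farthest from the median score r was -0.66 and -0.70 in LD and 0.26 and 0.04 in ADV mice. Of all genes 14.5% in LD mice and 4.27% in ADV mice had an unadjusted permutation p under 0.05 with this score.

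The difference of slopes between the groups was examined for each of the 72 ordered pairs, and 9 had an unadjusted edgeR p under 0.05. The call at an FDR under 0.05 was for 1 pair, Dok7 on Rapsn, at r = -0.53 in LD and 0.44 in ADV mice, with slopes that differed by 3.34 (SE 1.02, edgeR FDR 0.0411). In that fit 8.16% of all genes were called, against 0.0499% for slopes on Musk, 0.0249% on Dok7, 0.0416% on Lrp4 and 0% on each of the other 5 members. The call was lost in 10 of the 30 fits that left out 1 library, and the genes called fell from 981 to 5 without LD mouse 33 and to 90 without ADV mouse 34.

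The genes most like each member, by the r of log2 CPM over 30 mice with group means subtracted, were none of the other members. Musk went with Lpin1, a phosphatidate phosphatase of lipid synthesis, at r = 0.82, and with Lrrc58 at 0.81. Dok7 went with Brd2, a bromodomain protein that reads acetylated histones, at 0.78. Chrnd went with Aldh2, mitochondrial aldehyde dehydrogenase, at 0.81 and with Mrps5, of the mitochondrial ribosome, at 0.78. Chrna1 had Acss2, which makes acetyl-CoA from acetate, at 0.68 and Ppp1r11 at 0.67, and Chrnb1 had Tcf25 at 0.76 and Rbm3, a cold-inducible RNA-binding protein, at 0.74. The remaining members had Sgms1os1 and Preb (Chrne, both 0.64), Cisd3 and Gm32261 (Rapsn, 0.79 and 0.77), Amigo3 and Rbfox2 (Lrp4, 0.79 and 0.74) and Rilp and Gm11613 (Colq, 0.72 and 0.69).

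Other genes of the junction were examined as lists. Among agrin and neuregulin signaling genes, 16 of 18 were tested and 0 were called in either direction, with a median log2 fold change of -0.00 beside 0.00 over all genes. Its most abundant members were Dvl1 at a median of 41.5 FPKM in LD and 43.1 in ADV mice (log2 fold change 0.08, SE 0.03, edgeR FDR 0.0966) and Dnaja3 at 42.1 and 44.1 (edgeR FDR 0.403), both partners of MuSK. Of 19 tested genes of the synaptic cleft, basal lamina and cytoskeleton, 1 rose and 1 fell, where 5.61% of all genes tested rose and 5.2% fell. Nes, the intermediate filament nestin, which is concentrated at the junction, rose by 0.34 (SE 0.11, edgeR FDR 0.0346), and Lama2, the laminin alpha chain of the whole fiber surface, had -0.23 (SE 0.06, edgeR FDR 0.0205). Plec, plectin, was among the most abundant there, with an edgeR FDR of 0.134. All 5 genes of protein glycosylation whose mutation causes congenital myasthenia were tested and 0 were called, Gfpt1 having a log2 fold change of -0.14 (edgeR FDR 0.0557) and Dpagt1 of -0.00 (edgeR FDR 0.984).

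Of 12 tested genes known to respond to denervation of muscle, 3 rose and 0 fell, where 5.61% of all genes rose and 5.2% fell, and the median log2 fold change was 0.12 beside 0.00 over all genes. These were Myog, Myod1 (0.73, SE 0.19, edgeR FDR 0.0147) and Cdkn1a (0.95, SE 0.27, edgeR FDR 0.0241), a pair of myogenic factors and an inhibitor of the cell cycle. The study had reported both myogenic factors as raised, and the list was drawn up with earlier results known, so this count is not independent. Among those not called, Ncam1 was at 0.02 (edgeR FDR 0.95) and Myh3 at 0.25 (edgeR FDR 0.33). Gadd45a, the most abundant besides Cdkn1a, was at a median of 9.85 FPKM in LD and 11.9 in ADV mice (edgeR FDR 0.374). Chrna1, Chrng and Musk, the receptor genes and kinase that also rise on denervation, did not pass the test or were under the limit for it, as given above. Of 11 other nicotinic receptor subunits 1 was tested, Chrna2, at a median of 0.42 FPKM in LD and 0.536 in ADV mice (log2 fold change 0.49, SE 0.28, edgeR FDR 0.234).

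Markers of the cells around the junction were set beside these values. The libraries were of muscle: Acta1, skeletal actin, was at 15100 to 20200 FPKM, and 0 of 7 muscle fiber genes were called (Acta1 edgeR FDR 0.682, Tnnt3, fast troponin T, 0.887). Each count of genes that rose stands beside 5.61% of all genes tested. Of 6 tested Schwann cell genes 1 rose, Ncmap (0.92, SE 0.24, edgeR FDR 0.0157), and the median log2 fold change was 0.46, with Mbp, myelin basic protein, at 0.45 (edgeR FDR 0.0612). The 9 listed Schwann cell genes summed to 14 to 32.1 FPKM in LD mice and 15.9 to 57.3 in ADV mice. Slow fiber genes, with 0 of 7 called and a median of 0.46, summed to 52.8 to 1070 FPKM in LD and 265 to 2100 in ADV mice, among them Myl2 (edgeR FDR 0.552) and Myl3 (edgeR FDR 0.224). Of 3 tested satellite cell genes 1 rose, Sdc4 (0.41, SE 0.13, edgeR FDR 0.0453), while Cdh15 was at 0.00 (edgeR FDR 0.971). Of 8 motor neuron genes 0 could be tested, and Chat and Slc18a3, which define cholinergic neurons, had 0 reads in all 30 libraries. Of the same list Slc5a7, at 8.38 reads on average, reached 0.043 FPKM in LD and 0.901 in ADV mice. Isl1, at 6.73 reads, reached 0.342 in LD and 0.28 in ADV mice. Apart from the fits on Myh2 and Myh7 given above, the part of these cells in the members' values was not tested. With the clock score added to the model 0 of the 12030 genes were called, so the calls of Nes, Lama2, Myod1, Cdkn1a, Ncmap and Sdc4 were lost. As given for Myog, score and schedule are not fully separable in that fit.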

How the data were processed

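Poly(A)+ RNA of gastrocnemius muscle from 14 LD and 16 ADV mice was analysed, 1 library per mouse, with groups taken from the labels. The authors trimmed reads, mapped them to GRCm39 with STAR (2.7.10a per the submitters' processing notes), counted exon reads with HOMER (4.11) and deposited raw counts and FPKM for 57186 rows. Each mate counts as 0.5 read, so 14.8% of these estimated counts deposited by the authors were not whole, and they were rounded. The deposited FPKM equal the count over exon length and library total to within 0.0005. Of the 232 symbols with more than 1 row, that of greatest length among those expressed was used. Libraries held 18875468.5 to 28512674 read pairs on exons (median 22036588.5), and no 2 libraries of a group agreed within sampling noise.

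Genes with a mean over 20 reads and over 0.5 FPKM (12030) were fitted with edgeR 4.0.16 in R 4.3.3 (quasi-likelihood F test, TMM). This fit was checked on simulated data, with changes placed only in genes of higher mean reads than Chrnd and Myog. The simulated slopes were on a value known without error, unlike the log2 CPM of a gene. Tests on single values were two-sided Wilcoxon rank-sum tests, exact or with 100000 permutations, and correlations used 100000 permutations (scipy 1.17.1). Alternatives were DESeq2 1.42.0, limma 3.58.1 on log2(FPKM + 0.1) and log2(FPKM + 1), other scalings and filters, covariates, removal of the GC trend, a replicate block, and leaving out each library. Exon numbers, overlaps and GC content are from GENCODE vM39, a later release than that named for the deposited tables. Gene coordinates are those of the deposited rows, and the vM39 exons can reach past them. Whether the shared bases lie within the rows was not examined.

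The genes named are the members and Myog, of each list the 2 most abundant tested genes and up to 4 called genes of largest fold change, and for each tested member the 2 genes of highest r. Some genes that this rule names are not reported here. The mice rich in Chrng with Ncam1, Myh3, Gdf5 and Sln, and Myh2, Slc5a7 and Isl1, were described after their values were seen. The members and lists were chosen with earlier results of these data known. The hour of killing was not used here.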

Additional observations from a re-analysis of the deposited data

Results flagged for a closer look

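The slope of Dok7 on Rapsn differed between the groups by a test of the difference itself. Log2 Dok7 per doubling of Rapsn was 3.34 higher in ADV than in LD mice (SE 1.02, edgeR FDR 0.0411 over 12029 genes). It was called for 1 of 72 ordered pairs of members examined, and the FDR does not count the other pairs. With the GC trend of each library removed the difference was 2.08 (edgeR FDR 0.243), and with the clock score in the model 3.11 (edgeR FDR 0.0838). Without ADV mouse 34 it was 2.72 (edgeR FDR 0.198) and without LD mouse 33 it was 3.08 (edgeR FDR 0.198). The FDR was also over 0.05 without LD mouse 21, 22, 26, 31 or 36, or without ADV mouse 25, 26 or 33.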

How the results depend on the processing

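No member was called between the groups, or had a called slope on Myog, under any alternative that was run, each library left out included. Values whose sign turned were all uncalled. For ADV against LD, Chrna1 had a log2 fold change of -0.23 with the clock gene score, -0.18 with Myog and -0.05 with Myh7 as a covariate, and -0.01 over the 28 libraries whose label number occurs in both groups. Chrnd was at -0.25 with the clock gene score, -0.25 with Myog and -0.08 with Myh7 as a covariate. Musk was at 0.02 with the clock gene score and 0.06 with Myog as a covariate. Rapsn was at 0.01 with limma on either pseudocount and with library size alone, and at 0.00 with Myh7. For slopes on Myog, Dok7 was at -0.04 and Rapsn at -0.01 with the GC trend removed, and Colq at -0.00 with the clock gene score. Leaving out 1 library moved the fold change of Chrna1 between -0.02 and 0.05 and of Rapsn between -0.02 and 0.02, and the Myog slope of Dok7 between -0.01 and 0.15 and of Colq between 0.00 and 0.11. The cause was not tested. Over all genes 1301 were called, 1679 with DESeq2, 603 with the GC trend removed, 647 with Myh7 and 0 with the clock gene score or Myog as a covariate. The slope of Chrnd on Chrna1 was at 1.15 with the GC trend removed (edgeR FDR 0.0819).

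The labels do not say whether mice of the same number share anything, and this was not tested. The correlation of same-numbered mice ran from -0.261 to 0.429 over 14 pairs, with a median of 0.011 and 6 pairs over 0.1. Of 14 LD mice, 3 correlated best with their own number. With the replicate block Chrna1 was at -0.00, 0 members were called, and 494 genes were called over all, against 616 of the same 28 libraries without the block. The SE of the fold change with and without the block was 0.13 and 0.17 for Chrnd and 0.10 and 0.13 for Musk. For Chrne it was 0.09 in both fits, and for Colq 0.10.

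Depth limits Chrng most, at 3.93 reads on average, and Chrnd next. Reads are not counted by molecule, so counting errors cover sampling alone.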
